A study of Ditylenchus destructor and Heterodera glycines and Meloidogyne incognita with 162 samples.

Results

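The 150 genes described here are the genes of *Heterodera glycines*, the soybean cyst nematode, whose levels at the 2-fold and Moving stages of embryogenesis stood highest above those of 8 other stages. The Comma stage is not among the 8, and 65 of the 150 had a Comma median above the lower of their 2-fold and Moving medians. They were taken from 18219 genes, of which 1227 had a score above 0. The score was the log2 ratio of the lower of the 2-fold and Moving median levels to the highest median level at 8 other stages, with 1 added to both levels. Levels are in CPM, which are counts after each library was scaled to a total of 1000000. The score uses the measured values, so the height of these genes at 2-fold and Moving over the 8 stages is how they were chosen, and no test of it is given. RNA was measured in single whole embryos of strain Hg5#, obtained from infected soybean roots, with no treatment, by Smart-seq2, which copies polyadenylated RNA into full-length cDNA. The 11 stages began with the Zygote and went on through embryos of 2, 4, 8, 24-44 and 64-78 cells to Comma. After it came the elongating 1.5-fold and 2-fold embryos, then Moving, and last L1, with 5 embryos at each stage except 2-fold with 4. The full series holds 162 libraries of 3 species and 79337 genes. The embryos of a stage were selected by the authors from a larger number sampled, and the labels do not name the culture of each, so the spread behind a p-value is that between the embryos sequenced.

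In nematodes such as *Caenorhabditis elegans*, the embryo changes from a ball of cells into a worm by elongation within the egg shell. The epidermis contracts around the circumference first, and body wall muscle then starts to twitch and is needed for elongation to go on. Late embryos move within the egg and secrete the first cuticle, a layer of collagens and other proteins laid down by the epidermis. In cyst nematodes the juvenile formed in this way moults inside the egg before it hatches. The stage names follow this change of shape and the start of movement. The genes are given by the IDs of the deposited table, since 0 of the *H. glycines* IDs matched the reference table at hand. No role is assigned to any of them, and planned lists of muscle, cuticle and nerve genes were not used.

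Total counts ranged from 181109 to 10955776 per *H. glycines* library. Moving replicates 1 and 2 differed in 17 of 18219 genes and in 0 of the 150, with totals of 5241872 and 5241863. Any other pair of libraries of a stage differed in at least 8461 genes. These 2 columns differed by less than the sampling noise and were counted as 1 sample, so Moving has 4 libraries below (replicates 1, 3, 4 and 5). The Comma libraries, at 432574 to 1828689 counts, were not used by the score.

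Among the 8 libraries of the peak stages, 3 stood apart, namely 2-fold replicate 2 and Moving replicates 4 and 5. Their separation was noticed after the values were seen. Over the 16916 genes outside the set of 150, the Pearson r of log2(CPM + 1) was 0.803 to 0.839 among these 3 libraries and 0.740 to 0.893 among the other 5. Between the 3 and the 5 it was 0.640 to 0.778. Their totals of 3027416, 4836218 and 4694361 lay within the range of 1918922 to 5241872 of the other 5, but they held fewer genes at 1 CPM or more (7380, 8241 and 9238, against 11063 to 14010). By mean r with each stage, all 4 2-fold libraries were closest to 1.5-fold, with 0.756 in replicate 2 and 0.833 to 0.851 in the other 3. Moving replicates 1, 3 and 4 were closest to 2-fold (0.758, 0.785 and 0.759), and Moving replicate 5 to L1 (0.823). By this measure only Moving replicate 5 had a closest stage unlike the others of its stage. The 2-fold means of replicates 1, 3 and 4 take in replicate 2, however, and r among these 3 was 0.872 to 0.893. Replicate 2 of 2-fold had a higher mean r with Moving (0.751) than with 2-fold (0.732), unlike the other 3. The part of developmental time, of the sampling of the embryo or of the library preparation in this separation was not tested. Levels of the genes named for their peak are given below in each of the 8 libraries.

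**Figure D1:**
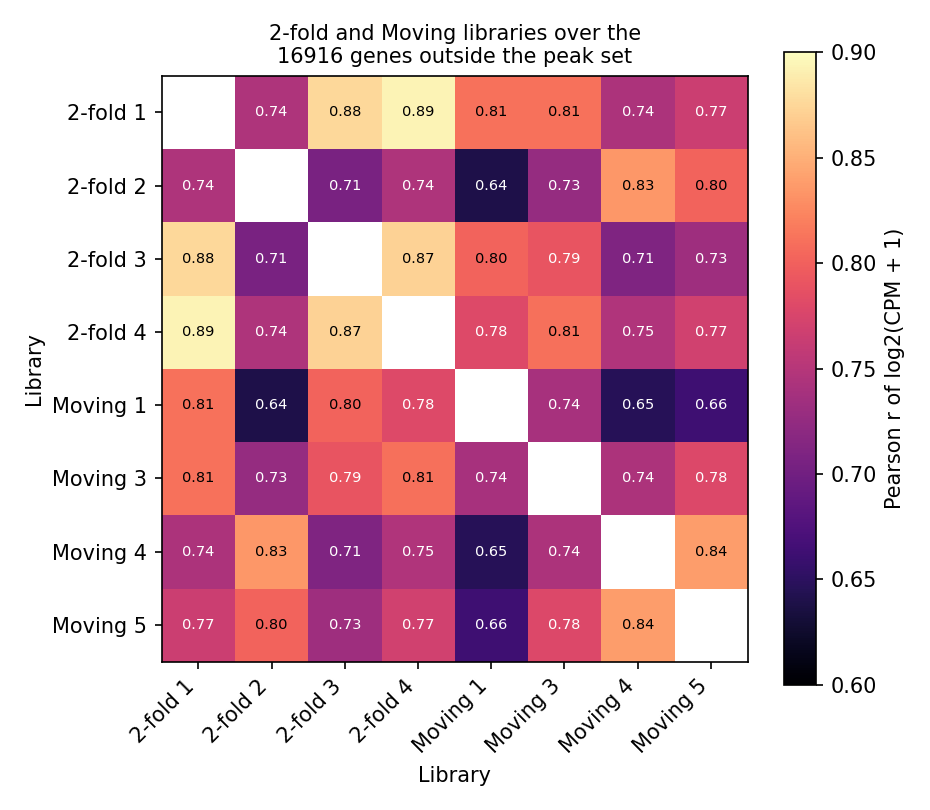
Pearson r of log2(CPM + 1) between the 2-fold and Moving libraries of *H. glycines* over 16916 genes outside the set of 150, with both axes listing the libraries by stage and replicate and colour giving r. 2-fold 2, Moving 4 and Moving 5 had r of 0.803 to 0.839 with each other and 0.640 to 0.778 with the other 5.

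The 150 genes together took up a large share of the counts in 5 libraries. They held 10.5%, 6.71% and 7.77% of all counts in 2-fold replicates 1, 3 and 4, and 13.1% and 16.04% in Moving replicates 1 and 3. In 2-fold replicate 2 they held 0.465%, and in Moving replicates 4 and 5 they held 0.637% and 0.424%. The last 3 values were above every library of the 8 other stages, where the share ranged from 0.0347% to 0.179% over 40 libraries. The genes were chosen on these same libraries, so this is a description. In these 3 libraries 81, 66 and 35 of the 150 had no count, and the leading gene held 32.2%, 20.8% and 23.5% of the set's counts. By share, the 4 Moving libraries fell into a high pair and a low pair. Their median of 6.84% matched no embryo, and it was 0.637% without Moving replicate 1 or 3, and 13.1% without replicate 4 or 5. At 2-fold the median was 7.24%. Without the 3 libraries the medians were 7.77% at 2-fold and 14.5% at Moving. The exact Clopper-Pearson 95% intervals of the shares spanned at most 0.104 percentage points at 2-fold and Moving and 0.0514 elsewhere. They cover counting error only, since the reads carry no molecular identifiers.

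**Figure D2:**
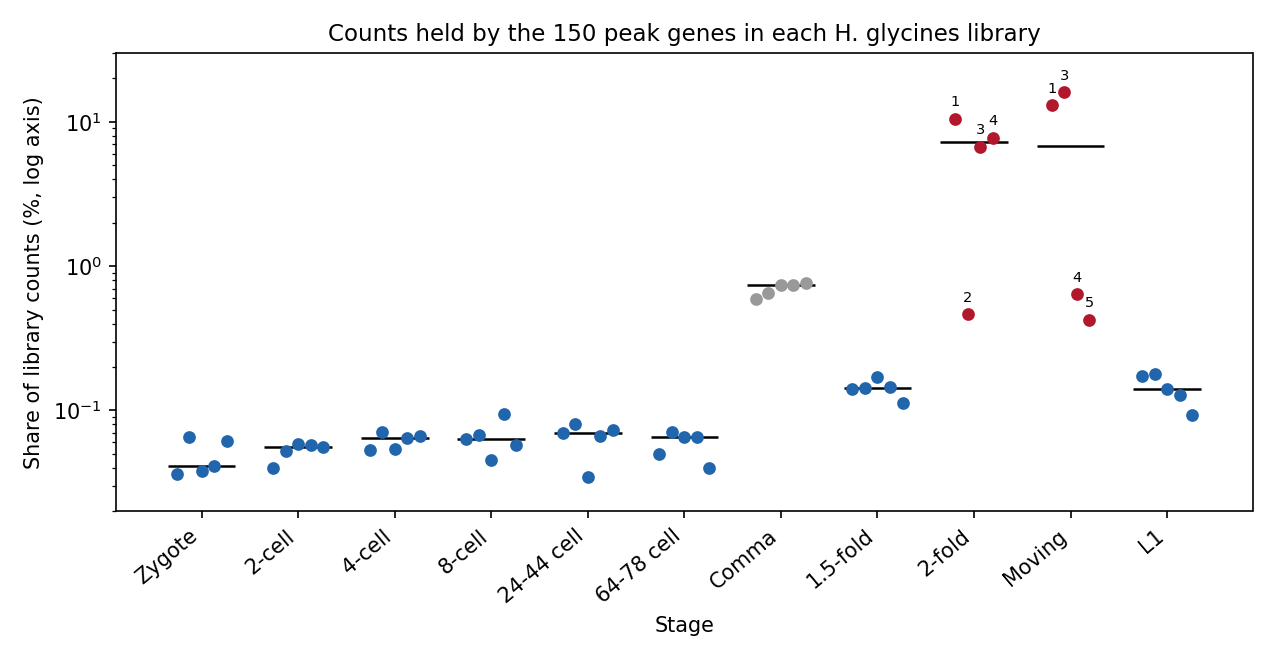
Share of library counts held by the 150 genes (%, log axis) in each *H. glycines* library, by stage, with 1 point per embryo and a line at the stage median. Numbers beside the red points give the 2-fold and Moving replicates, of which 5 lie between 6.71% and 16.04% and 3 between 0.424% and 0.637%.

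Levels in early cleavage were low, as the score requires. At Zygote 117 of the 150 had a median of 0 CPM, and the median over the 150 was 0 CPM at Zygote, 2-cell, 8-cell, 24-44 cell and 64-78 cell and 0.0913 CPM at 4-cell. It was 1.21 CPM at 1.5-fold, 27.6 CPM at 2-fold, 15.9 CPM at Moving and 0.287 CPM at L1. Over all 18219 genes the median was also 0 CPM at Zygote. It was 0.264 CPM at 2-cell, 0.548 CPM at 4-cell and 0.172 CPM at 8-cell, and 3.71, 4.61, 3.49 and 1.92 CPM at the last 4 stages in order. In single libraries the median over the 150 was 34.9, 0, 28.7 and 34.5 CPM in 2-fold replicates 1 to 4 and 37.9, 28.1, 0.207 and 3.83 CPM in Moving replicates 1, 3, 4 and 5, so that 15.9 CPM was near no Moving embryo. The highest of the 8 other stages was 1.5-fold for 53 genes and L1 for 30. It was Zygote for 22, a count that includes genes at 0 in all 8. The 2-fold median was the higher of the peak medians in 85 genes and the Moving median in 65.

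The height of the peak varied widely within the set. Scores ran from 1.29 to 10.84 with a median of 1.80, and 22 genes had a score of at least 3. The lower of the 2-fold and Moving medians was at least 100 CPM in 26 genes and under 10 CPM in 67. At the edge of the set, the genes just inside were HG16702 (1.29), HG12030 (1.29) and HG04559 (1.29), and the genes just outside were HG05140 (1.28), HG16799 (1.28) and HG11480 (1.27). The edge thus separates nearly equal scores, and 59 genes had a score of at least 2.

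**Figure D3:**
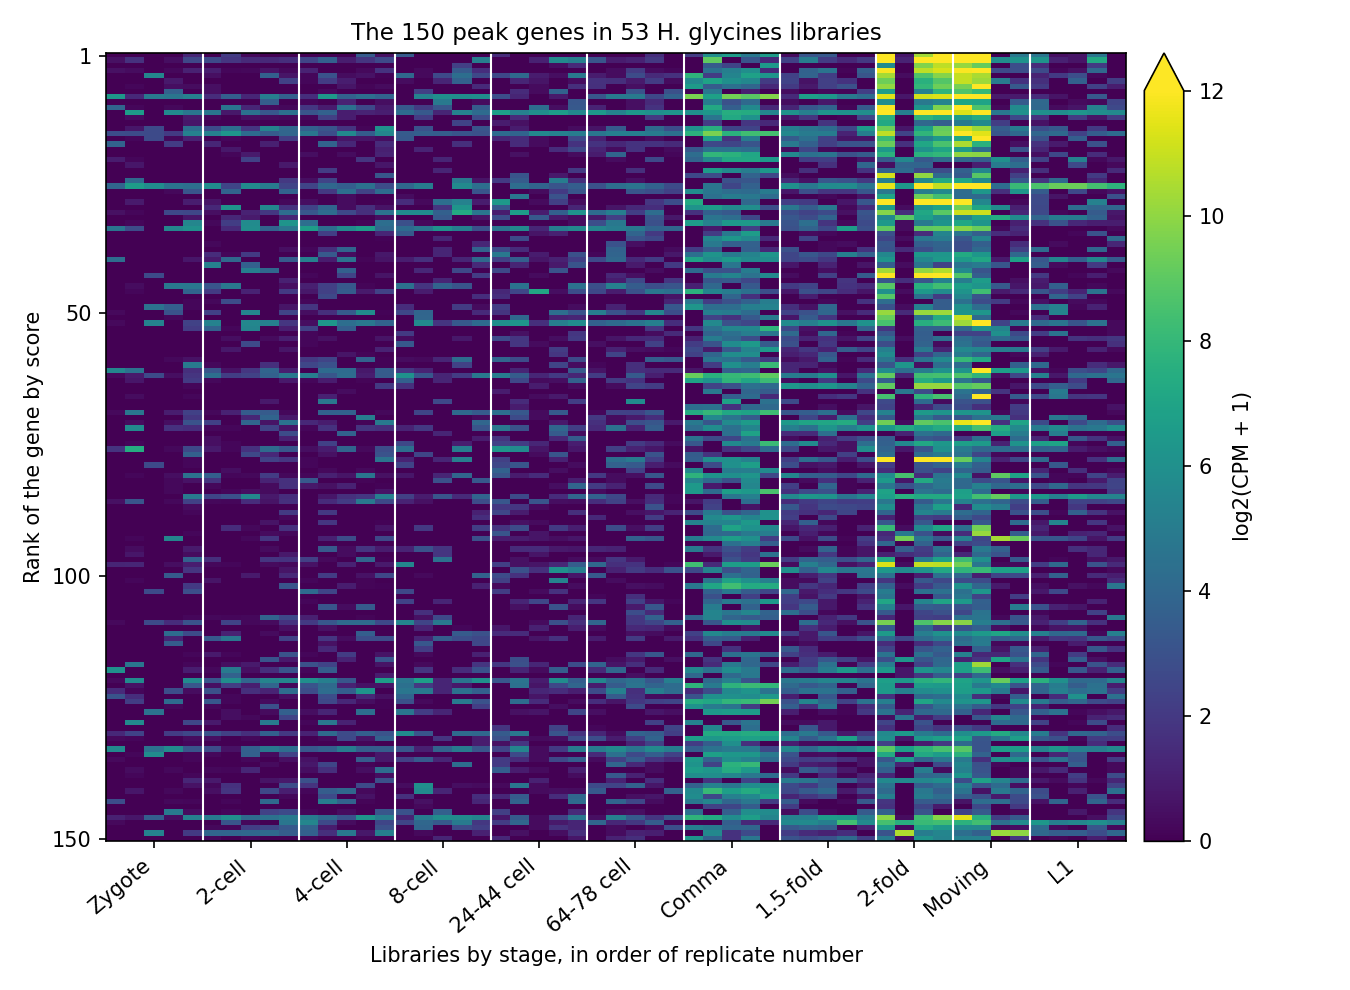
Levels of the 150 genes in the *H. glycines* libraries, with genes in rows ordered by score, libraries in columns ordered by stage, and colour giving log2(CPM + 1), with all values above 12 in the same yellow. High levels fill 5 of the 8 columns of 2-fold and Moving, and the remaining 3 columns are low for most genes at the top of the order.

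HG11757 had the highest score, 10.84. It lies on contig_170 from 1143965 to 1145807 on the minus strand. Its level was 4521, 0.66, 1307 and 6411 CPM in 2-fold replicates 1 to 4, and 5997, 18299, 0 and 27.9 CPM in Moving replicates 1, 3, 4 and 5. No library of the 8 other stages exceeded 25.4 CPM. The 5 high libraries were above all of these, whereas Moving replicate 4 had no count of the gene and 2-fold replicate 2 was within their range.

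HG04242, the next by score (9.86), lies on contig_056 from 256071 to 260161 on the minus strand. It was at 23386, 1.32, 15291 and 12677 CPM in 2-fold replicates 1 to 4, and at 10213, 17121, 58.1 and 67.3 CPM in Moving replicates 1, 3, 4 and 5. It took the most counts of any of the 150 in each of 2-fold replicates 1, 3 and 4. Its highest level in a library of the 8 other stages was 152 CPM, in L1 replicate 4, above all 3 low libraries.

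HG12823, on contig_184 from 760607 to 762093 (minus strand), was at 3795, 0, 1808 and 2457 CPM at 2-fold and 3868, 9242, 5.58 and 6.39 CPM at Moving, in the same replicate order. HG07905, on contig_115 from 57390 to 58888 (minus strand), was at 2715, 0.66, 2351 and 2644 CPM at 2-fold and 3988, 24595, 0.83 and 0.85 CPM at Moving. In both genes Moving replicate 3 was well above Moving replicate 1, and the 3 high 2-fold embryos of HG07905 differed little from each other. HG13260, on contig_185 from 1107443 to 1110710 (plus strand), was at 3122, 83.9, 7169 and 1882 CPM at 2-fold and 9364, 5099, 18.0 and 284 CPM at Moving. It differs from the genes above in its level outside the peak, with a median of 53.04 CPM at 1.5-fold and 388 CPM at L1, and so had a score of only 2.68. These 5 genes, HG11757, HG04242, HG12823, HG07905 and HG13260, had the highest lower-of-both medians in CPM. Per kilobase of genomic span (introns included), HG11757 led with 1581 CPM per kb, followed by HG07905 (1330.5), HG12823 (1303) and HG04242 (1256), and 8 of the 10 highest genes were the same on both scales.

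The other 6 genes among the 10 highest scores were lower but alike in pattern. HG08189 was at 1345, 0.33, 417 and 899 CPM at 2-fold and 1974, 1438, 0 and 0 CPM at Moving. HG11839 was at 661, 0, 193 and 438 CPM at 2-fold and 1959, 1217, 31.0 and 2.34 CPM at Moving. HG13440 was at 1061, 0, 244 and 653 CPM at 2-fold and 741, 5002, 0 and 9.16 CPM at Moving. In each of these 3 genes the 5 libraries lay above the 3 without overlap, and the spread within the 5 was itself large. HG11111 varied most at 2-fold, with 54.9, 0, 852 and 1797 CPM, and was at 1096, 564, 0 and 6.18 CPM at Moving. HG11313 was at 105, 0, 39.3 and 230 CPM at 2-fold and 419, 265, 0 and 0 CPM at Moving. HG00677 was the lowest of the 10, at 59.3, 0, 28.0 and 39.97 CPM at 2-fold and 133, 124, 0 and 9.59 CPM at Moving. In the 3 libraries 2-fold replicate 2, Moving replicate 4 and Moving replicate 5, these last 3 genes did not exceed 9.59 CPM.

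**Figure D4:**
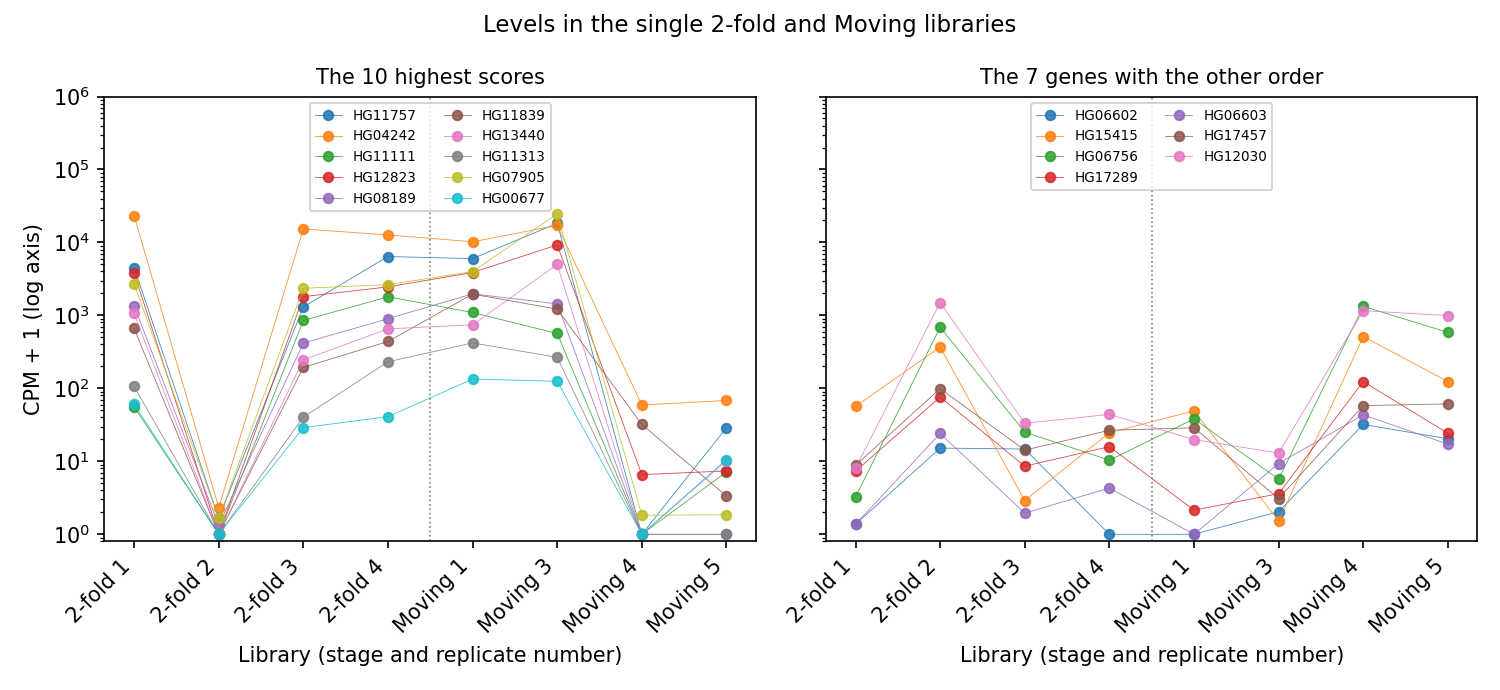
Levels of named genes (CPM + 1, log axis) in the single 2-fold and Moving libraries, with the 10 highest scores on the left and the 7 genes of the opposite order on the right, 1 point per library, and thin lines joining the points of a gene as a guide only. On the left no gene exceeds 67.3 CPM in 2-fold 2, Moving 4 or Moving 5, and on the right every gene is highest in these 3.

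The order of the 3 and the 5 libraries was the main division within the set. All 3 were below all 5 in 86 of the 150 genes (57.3%), against 14.2% of the 17269 genes with a count in these libraries. All 3 were above all 5 in 7 genes (4.67%, against 2.42%), and the libraries overlapped in 57. With library sizes scaled by TMM the first 2 counts were 75 and 8. The libraries were set apart after their values were seen, and the score was computed from the same libraries, so these counts are a description. Genes with all 3 below were 42 of the 50 highest scores, 22 of the next 50 and 22 of the last 50. Between the 3 and the 5 libraries, Spearman's rho over the 150 genes was 0.0104 to 0.227, against 0.622 to 0.838 among the 5 and 0.405 to 0.556 among the 3. At least 138 of the 150 genes were at 1 CPM or more in each of the 5 libraries, against 42, 64 and 94 in 2-fold replicate 2, Moving replicate 4 and Moving replicate 5.

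The 7 genes with the opposite order were HG06602, HG06603, HG06756, HG12030, HG15415, HG17289 and HG17457. HG12030, on contig_172 from 973084 to 973519 (minus strand), was at 7.09, 1496, 32.2 and 43.0 CPM at 2-fold and 18.9, 11.99, 1159 and 995 CPM at Moving. It took the most counts of any of the 150 in 2-fold replicate 2 and Moving replicate 5. HG06756, on contig_097 from 260958 to 263717 (plus strand), was at 2.24, 688, 24.2 and 9.37 CPM at 2-fold and 37.2, 4.69, 1329 and 585 CPM at Moving, and was the highest of the 150 in Moving replicate 4. HG15415 was at 55.6, 367, 1.90 and 23.7 CPM at 2-fold and 48.1, 0.52, 512 and 123 CPM at Moving. The 2-fold median of HG12030 was 37.6 CPM and its Moving median 507 CPM, although no Moving embryo was near that median. The other 4 were lower. In the 3 libraries HG17289 was at 23.2 to 123 CPM, HG17457 at 57.1 to 98.1 CPM, HG06602 at 14.2 to 31.0 CPM and HG06603 at 16.2 to 42.4 CPM, and in the 5 they did not exceed 14.9, 27.9, 13.7 and 8.34 CPM in the same order. HG06603, HG06756, HG15415, HG17289 and HG17457 are named because they make up this count of 7, after their values were seen.

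A level above every library of the 8 other stages was rare when all 8 peak libraries were asked for. The 5 libraries met this in 55 of the 150 genes, against 0.45% of the 17993 genes with a count. The score was computed from these libraries and in part sets this count. All 8 met it in 1 gene, HG13162, and in 0.00556% of the genes, which is that gene alone. HG13162 lies on contig_185 from 513731 to 515224 on the plus strand. Its level was 47.0, 485, 112 and 56.8 CPM at 2-fold and 38.5, 114, 169 and 56.2 CPM at Moving. Its highest level in the 8 other stages was 31.7 CPM, in an L1 library. HG13162 was singled out after its values were seen.

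Only part of the set was present in all 8 embryos. At 1 CPM or more in each of the 8 libraries were 22 of the 150 genes (14.7%), against 31.8% of all genes, and at 50 CPM or more 3 (2%, against 7.49%). The 3 genes were HG07518, HG11917 and HG13967. HG13967, on contig_192 from 722681 to 724410 (plus strand), was at 106, 188, 154 and 157 CPM at 2-fold and 115, 333, 571 and 82.4 CPM at Moving. HG07518, on contig_104 from 203524 to 204820 (plus strand), was at 107, 84.2, 191 and 236 CPM at 2-fold and 124, 74.5, 593 and 111 CPM at Moving. Both were highest in Moving replicate 4 and had no low embryo. Their peak was shallow, with medians of 47.2 and 32.2 CPM at 1.5-fold and 44.9 and 42.2 CPM at L1, and HG07518 reached 195 CPM in a library of the 8 other stages. HG13967 and HG07518 were chosen after their values were seen.

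Few genes made up most of the counts of the set. The 5 highest of the 150 held 49.8% to 69.4% of the set's counts in each of the 8 libraries, and the leading gene differed between embryos. HG04242 led in 2-fold replicates 1, 3 and 4, HG13289 in Moving replicate 1 and HG01879 in Moving replicate 3. HG13289, on contig_185 from 1232905 to 1241756 (plus strand), was at 1773, 4.29, 231 and 651 CPM at 2-fold and 40216, 2861, 8.27 and 16.6 CPM at Moving, so that 1 Moving embryo stood far above the rest. HG01879, on contig_025 from 918552 to 925683 (plus strand), was at 8255, 35.7, 4510 and 4972 CPM at 2-fold and 2611, 26443, 26.7 and 65.2 CPM at Moving. It was highest in the other of the 2 high Moving embryos.

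In some genes the 3 high 2-fold embryos were far above most Moving embryos, although the difference between the stages was not called for any of them. HG12778 was at 16667, 9114 and 11973 CPM in 2-fold replicates 1, 3 and 4, at 0 in replicate 2, and at 595, 41.2, 1.24 and 4.90 CPM at Moving. HG03309 was at 3890, 0, 3914 and 5725 CPM at 2-fold and 416, 10.9, 0 and 0 CPM at Moving. In both genes the 3 high 2-fold embryos lay above every Moving embryo, and 2-fold replicate 2 lay at 0. HG16094 was at 8879, 0, 4947 and 6508 CPM at 2-fold and 5814, 46.4, 0 and 0.21 CPM at Moving, where a single Moving embryo was as high as 2-fold. HG03307, which lies beside HG03309 with 1 gene between, was highest in Moving replicate 1 instead, with 3928, 0, 76.3 and 819 CPM at 2-fold and 14945, 384, 0.21 and 53.3 CPM at Moving. HG01879, HG03307, HG03309, HG12778 and HG16094 were chosen after their values were seen.

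Whether the 150 genes differed between 2-fold and Moving was tested with edgeR's quasi-likelihood test, with Benjamini-Hochberg adjustment over all 9849 genes tested. The score takes the lower of both medians and does not set which is higher. It asks for both medians to be high in these same libraries, however, which disfavours genes with a large difference between the stages. The number called in the set is thus in part set by the choice. Of the 145 genes of the set that were tested, 0 were called in either direction at an adjusted p under 0.05, against 0% of all genes. At an unadjusted p under 0.05 there were 6 of the set and 427 of all genes. DESeq2 called 0 of the 137 genes of the set it tested, and over all genes 58 higher at Moving (0.531%) and 27 lower (0.247%), and 10 of the set had an unadjusted p under 0.05. The smallest edgeR p in the set was that of HG10667, with a log2 fold change of 5.44 and an adjusted p of 0.990. HG10667 was at 56.0, 18.8, 32.7 and 68.1 CPM at 2-fold and 72.7, 5983, 108 and 85.4 CPM at Moving, so the stages did not overlap, but 1 embryo set the size of the change. Without the 3 libraries that stood apart, edgeR again called 0 of 148 genes of the set, with 32 at an unadjusted p under 0.05, and 871 of 11900 genes reached that p. On simulated counts with the spread of this comparison the share of changed genes that the test found was 0% at 4-fold, 5% at 8-fold, 22.5% at 16-fold and 65% at 64-fold. Most simulated differences of up to 16-fold were thus missed. The changed genes were drawn at random from all genes tested, so these shares need not hold for the 150.

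The stages on either side of the peak were compared in the same way, 1.5-fold before it and L1 after it, with 5 embryos each. Of the 150 genes 68 passed the filter on low counts. In the other 82 the higher of the 1.5-fold and L1 medians was at most 8.14 CPM, the value of HG00765 at 1.5-fold, and the median of these values was 0.339 CPM. HG00765, singled out after its values were seen, had a higher 1.5-fold median than HG04559, which was tested. At L1, 1 gene of the set was higher and 8 were lower at an adjusted p under 0.05. Over all 10135 genes tested 9.75% were higher and 5.88% lower. A gene high in all libraries of 1 stage passes the filter whatever its level at the other stage. All 8 lower genes passed through 1.5-fold, since the lowest L1 library of each was at 0.208 CPM or less. Among them HG09550, HG11917 and HG13233 had 0, 1 and 1 counts over the L1 libraries, and HG04559 and HG14101 had 6 each. The 8 are thus genes admitted by their 1.5-fold level. Without the filter 1 was higher and 7 lower of 149 genes of the set, against 1099 and 728 of 17278 genes. DESeq2 called 4 higher and 15 lower of 125 genes of the set, against 11.1% and 10% of all genes, and edgeR on libraries thinned to 1 depth called 3 and 4 of 33, against 12.2% and 7.3%. The median log2 fold change was -0.09 over the 68 genes and -0.06 over all genes tested.

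HG13260 was the gene that rose. Its level was 63.4, 28.1, 53.04, 55.0 and 24.3 CPM in 1.5-fold replicates 1 to 5, and 388, 616, 628, 339 and 218 CPM in L1 replicates 1 to 5. All L1 embryos were above all 1.5-fold embryos, and the means were 44.8 ± 17.5 (SD, n = 5) and 438 ± 179 CPM (SD, n = 5). The log2 fold change was 3.55 (SE 0.40, edgeR adjusted p = 3.85e-05). At the peak it was at 1882 to 9364 CPM in 5 libraries, above every L1 embryo, but at 83.9, 18.0 and 284 CPM in 2-fold replicate 2 and Moving replicates 4 and 5, below the L1 median of 388 CPM.

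HG11917 and HG13233 fell to a single count at L1. HG11917 was at 61.1, 11.8, 46.1, 25.5 and 24.9 CPM at 1.5-fold, and at 0 in L1 replicates 1 to 4 and 0.24 CPM in replicate 5. The ratio of its pooled levels was 936, with an exact 95% counting interval of 167 to 37015 (edgeR adjusted p = 0.000192). This interval and those of HG13233 below cover counting error only, not the spread between embryos. The fitted log2 fold change of HG11917, -8.80, was -10.34 without L1 replicate 5, which holds the single count. At the peak it was present in all 8 libraries, at 84.3, 50.5, 73.4 and 144 CPM at 2-fold and 225, 275, 110 and 113 CPM at Moving. HG13233 was at 6.78, 13.04, 5.13, 100.3 and 6.67 CPM at 1.5-fold, with 1 embryo far above the rest, and also had 1 count at L1. The ratio of its pooled levels was 1270, with an interval of 227 to 50194 (edgeR adjusted p = 0.00175). Most of the counts came from 1.5-fold replicate 4, and without it the ratio was 225, with an interval of 39.5 to 8956. The fitted log2 fold change of -8.66 was -6.60 without that library and -10.25 without L1 replicate 5, and the gene stayed called in both. At the peak it was at 533, 0.33, 533 and 579 CPM at 2-fold and 943, 586, 0.21 and 1.92 CPM at Moving, nearly level in the 5 high embryos.

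HG09550 had 0 counts in all 5 L1 embryos. It was at 4.75, 8.70, 5.13, 34.7 and 12.1 CPM at 1.5-fold, a mean of 13.1 ± 12.5 CPM (SD, n = 5). Against a floor of 3 counts over the L1 stage, or 0.105 CPM, the mean was at least 125-fold lower at L1, and at least 73.4-fold lower without 1.5-fold replicate 4 (edgeR adjusted p = 0.00378 with all libraries). HG12089 was at 36.6, 35.8, 99.0 and 90.6 CPM in 1.5-fold replicates 1 to 4 and 32.2 CPM in replicate 5, and at 0 in L1 replicates 1 to 3 and 0.42 and 5.04 CPM in replicates 4 and 5. Its log2 fold change was -5.47 (edgeR adjusted p = 0.0147) and -8.85 without L1 replicate 5, and like the genes before it, HG12089 had no overlap between the stages. The other genes that fell were HG14101 (log2 fold change -4.80), HG04559 (-4.69), HG17107 (-3.64) and HG00110 (-3.54). HG00110 was at 84.8, 126, 134, 166 and 3.64 CPM at 1.5-fold and 5.403, 0, 5.29, 17.7 and 6.72 CPM at L1, so 1 embryo at 1.5-fold lay within the L1 range. The stages overlapped in HG17107 too. The calls of HG11917, HG12089 and HG13260 held in 16 of 16 alternatives, and that of HG09550 in 14 of 15. That of HG13233 held in 14 of 14, but this gene had no adjusted p with DESeq2 or on thinned libraries. The calls of HG00110, HG04559, HG14101 and HG17107 held in 7 of 16, 4 of 15, 9 of 15 and 5 of 15, and each was lost without 1.5-fold replicate 2, among other libraries. HG00110, HG04559, HG12089, HG14101 and HG17107 are named to complete the count of genes that fell.

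**Figure D5:**
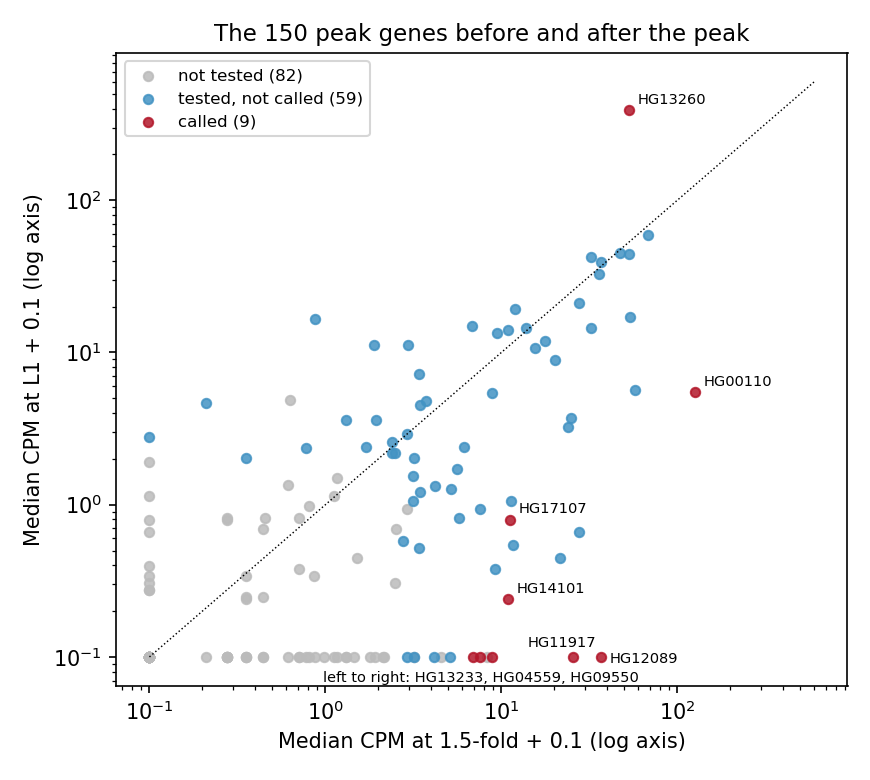
Median CPM + 0.1 of the 150 genes at 1.5-fold and at L1 (both log axes), with the dotted line at equal levels. HG13260 is the called gene above the line, 8 called genes lie below it, and the 82 grey genes did not pass the filter on low counts.

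Comma, the stage before 1.5-fold, was not used in the choice of the genes, and its libraries were shallow. The share of counts held by the 150 was 0.588% to 0.760% in the 5 Comma libraries, above all 40 libraries of the 8 other stages. The median over the 150 was 14.2 CPM at Comma, against 1.21 CPM at 1.5-fold. Over all 18219 genes it was 15.3 CPM at Comma, against 3.71 CPM at 1.5-fold, so a higher median at Comma was shared by the table as a whole. The Comma median exceeded the highest of the 8 other stages in 103 genes of the set (68.7%) and in 39.0% of all genes, and the score favours genes low at those stages. It exceeded the lower of the 2-fold and Moving medians in 65 genes (43.3%), against 57.6% of all genes. Whether the low depth of these libraries takes part in this was not tested.

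The genes highest at Comma were HG07905, HG13289 and HG06844. HG07905 was at 762, 113, 689, 489 and 872 CPM in Comma replicates 1 to 5. HG13289 was at 209, 765, 199, 318 and 357 CPM, and HG06844 at 599, 197, 264, 308 and 522 CPM. All 3 were abundant in every Comma embryo, and HG13289 was highest where the other 2 were lowest. At 1.5-fold, the next stage, they were lower and did not exceed 103, 48.2 and 62.6 CPM in the same order. HG04242 was detected mainly in 1 Comma embryo, with 0, 545, 0, 7.66 and 1.62 CPM. HG11757 was at 3.46, 58.2, 99.4, 27.3 and 94.0 CPM. At the other end, 23 genes (15.3%, against 23.5% of all genes) had a Comma median of 0, among them HG11313, HG06602 and HG06877.

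The 150 genes were spread over 76 of the 238 contigs of the table, 70 on the plus strand and 80 on the minus strand. The median genomic span was 1926 bases, against 2044 over all genes, from 228 bases in HG07159 (contig_099, 1345633 to 1345860, minus strand) to 18681 in HG03173 (contig_041, 319562 to 338242, minus strand). No gene span of the table overlapped another. Neighbouring genes of the set formed 6 runs with 14 genes, where at most 1 other gene stood between. Coordinates are those of the deposited table, whose assembly is not given in the sources used here.

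The longest runs had 3 genes. HG11734, HG11735 and HG11736 lie in a row on the plus strand of contig_170, with gaps of 1114 and 2571 bases, and differ strongly in level. HG11735 was at 352, 0, 226 and 368 CPM at 2-fold and 15.8, 4677, 0 and 10.01 CPM at Moving, while HG11734 did not exceed 20.3 CPM and HG11736 did not exceed 65.2 CPM in any of the 8 libraries. HG11736 had a median of 161 CPM at Comma, far above its peak medians. HG10709, HG10710 and HG10712 lie on contig_155 on alternating strands, none above 42.2 CPM in these libraries. The closest pair was HG12823 and HG12824 on the minus strand of contig_184, 24 bases apart. HG12824 was at 149.3, 0, 15.6 and 11.0 CPM at 2-fold and 29.95, 50.5, 3.52 and 0 CPM at Moving, low in the same 3 libraries as HG12823. Across 53 libraries the Pearson r of log2(CPM + 1) was 0.90 for this pair, and 0.39 to 0.75 for the other neighbours. As the genes were chosen for a shared peak, these r values are a description. HG06602 and HG06603, both of the 7 genes highest in the 3 libraries that stood apart, lie 382 bases apart on opposite strands of contig_093.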

How the data were processed

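Reads were trimmed by the authors with fastp (version 0.20.1). Alignment used HISAT2 and gene counting used HTSeq. The deposited values are unnormalized counts, from paired reads without strand information or molecular identifiers. Counts were scaled to CPM, without correction for exon length, which was not at hand. The members and the planned gene lists were chosen with earlier results of these data known. The package edgeR (version 4.0.16, under R version 4.3.3) compared stages, with TMM scaling, filterByExpr and a quasi-likelihood fit to the compared stages alone. Benjamini-Hochberg adjusted p under 0.05 made a call. DESeq2 (version 1.42.0), RLE factors, no filter, a replicate block, all libraries in 1 fit, thinned libraries, a minimum change of 2-fold and leaving out each library were alternatives. The omission of 3 libraries together and the TMM-scaled order of libraries were added after the data were seen. The test was checked on simulated counts. For 1.5-fold against L1 the simulated 8-fold changes were found in 47.5% of genes and the 16-fold ones in 75%. Ratios on 1 count carry exact intervals, and a stage at 0 was set to 3 counts.

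The genes named by rule were the 10 with the highest score, the 5 with the highest lower-of-both median, the 3 just inside and just outside the set, the 3 called genes with the largest change in each direction, those with the longest and shortest span, those of the longest runs, and the 3 highest and lowest at Comma. Other genes were chosen after their values were seen. Tables and figures used Python (version 3.11.15).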

Additional observations from a re-analysis of the deposited data

Results flagged for a closer look

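Single embryos were sought that stood apart from the others of their stage by Dixon's ratio, over the levels of 32 named genes at 2-fold and Moving and the share of counts held by the 150 genes at each of 11 stages. Of 75 groups tested 12 stood out, and chance flags about 1 in 20 groups where these are independent and normally distributed. These groups share embryos and hold genes chosen on the same libraries, so their own chance rate is not known. A low 2-fold replicate 2 accounted for HG07905 (0.661 CPM), HG11480 (1.98 CPM), HG13233 (0.330 CPM) and HG03173 (0.661 CPM), and the same embryo was high for HG12030 (1496 CPM). Moving replicate 3 was high for HG13440 (5002 CPM), HG07905 (24595 CPM), HG11735 (4677 CPM) and HG16799 (4870 CPM). Moving replicate 1 was high for HG13289 (40216 CPM) and HG10710 (36.4 CPM). 2-fold replicate 1 was high for HG16799 (282 CPM). HG11480 and HG16799 lie just outside the set of 150.

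The Comma libraries enter no test between stages. The 150 genes held a median of 0.738% of the counts of these libraries, above the highest value of 0.179% in the 8 other stages. The score chose genes low at those 8 stages and left Comma out, which in part sets this difference. Over all genes the median level was also higher at Comma (15.3 CPM) than at 1.5-fold (3.71 CPM).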

How the results depend on the processing

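The choice of the 150 genes depended on the settings. Of the 150, 69 were kept with stage means in place of medians, 87 and 99 with 0.1 and 10 added to the levels in place of 1, 70 with Comma among the other stages, and 78 without the 3 libraries that stood apart, which was chosen after seeing the data. With each peak library left out in turn 73 to 126 were kept, the fewest without Moving replicate 3 (73) and replicate 1 (77). TMM scaling kept 131 and a separate Moving replicate 2 kept 121. The median share at 2-fold was 6.71% to 7.77% and at Moving 0.637% to 13.1% with each library left out.

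For 2-fold against Moving, 0 genes of the set were called in every alternative run. From 1.5-fold to L1 the 1 gene higher and 8 lower of 68 tested became 4 and 15 of 125 with DESeq2, where 11.1% and 10% of all genes were called, and 3 and 4 of 33 with thinned libraries, where 12.2% and 7.3% were. The 8 lower became 4 with all libraries in 1 fit and 4 to 9 with each library left out. The lowest counts came without 1.5-fold replicate 2 (4) and without 1.5-fold replicate 1, 1.5-fold replicate 3 or L1 replicate 1 (5 each). Causes were not tested. No named call reversed its direction in any alternative run.

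Replicate numbers were not taken to pair the embryos. Correlations of deviations for same-numbered embryos were 0.351, 0.171 and -0.257 for 2-fold and Moving, and -0.0733 to 0.0526 for 1.5-fold and L1. The values for 2-fold and Moving are few and carry the separation of some libraries described above, so they cannot decide on pairing. With the replicate number as a block, 0 genes of the set were called between 2-fold and Moving, and 1 higher and 5 lower from 1.5-fold to L1.

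With 4 embryos a stage, simulated differences of up to 16-fold between 2-fold and Moving were mostly missed. The simulation drew each gene on its own, so the separation of 3 of the 8 libraries entered it only through the spread of each gene. The 82 genes not tested at 1.5-fold and L1 did not pass the filter on low counts, so nothing is known here of their change.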
